A study of Mus musculus with 24 samples.

Results

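Slow cycling mouse embryonic fibroblasts (MEF) from a culture under reprogramming were compared with untreated bulk MEF across all genes. The libraries were taken by their column names, 4 slow MEF and 4 bulk MEF libraries of 24 in the series, and no measured value entered that choice. The deposited table holds 23283 gene rows, and 11253 had enough counts in these 8 libraries to be tested. Both groups are fibroblasts of mouse embryos. Bulk MEF were kept in DMEM with 10% fetal bovine serum (FBS), penicillin and streptomycin and received no treatment. Slow MEF were grown for 6 days in embryonic stem cell medium (15% FBS, 1000 U/ml of leukaemia inhibitory factor, LIF, non-essential amino acids and beta-mercaptoethanol) with doxycycline at 2 ug/ml to induce the Yamanaka factors. They were then sorted by CFSE after 48 hours of dilution of the dye. Fast MEF, also 4 libraries, were induced and dyed in the same way and taken from the other CFSE gate; they serve here as a second reference. Cytosolic RNA of each well was primed with oligo-dT, amplified and sequenced. The labels describe bulk MEF as unsorted and their cycling as slow, although the protocol given for every library has 1000 cells sorted into a well. For strain, genotype, embryo age and the construct that carries the factors, the sources used here give nothing. Slow and bulk MEF thus differ at once in induction, medium, serum, LIF, doxycycline, dye and gate, and these cannot be told apart. No line or clone is named. Whether replicates are separate embryos or cultures is not stated; the p-values therefore reflect the spread between libraries, which may be technical.

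The Yamanaka factors, Oct4 (encoded by Pou5f1), Sox2, Klf4 and Myc, are transcription factors that together can turn a fibroblast into a pluripotent cell, a slow process that few cells complete and that is marked early by loss of the fibroblast programme and by faster division. CFSE is a dye that labels cell proteins and is shared out between daughter cells at each division, so the brightest cells have divided least. Cultured fibroblasts secrete collagen matrix and, on stiff plastic in serum, assemble contractile actin fibres under the control of Tgfb, serum response factor and the Yap coactivator. LIF signals through the receptor chains Lifr and Il6st and the kinases of the Jak family to Stat3, whereas interferons signal to a complex of factors that holds Irf9.

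Library totals ran from 8997774 to 12028033 counts in bulk MEF and from 6852283 to 10972162 in slow MEF, a difference within the spread between libraries (exact permutation test, two-sided, n = 4 each, p = 0.371). Slow MEF had counts in 14654 ± 270 genes (SD) and bulk MEF in 13246 ± 411, without overlap (exact permutation p = 0.0286, the smallest that 4 against 4 allows), and the difference remained with every library thinned to 6852283 counts. The share of counts on Rn45s, the ribosomal RNA precursor, and Lars2, the gene of a mitochondrial leucyl-tRNA synthetase, was 7.75 ± 3.20% in slow and 5.01 ± 1.35% in bulk MEF (exact permutation p = 0.2). Both groups carried fibroblast markers, the labelled cell type. The summed level of 10 of them was 45651 to 90759 CPM (counts scaled to library size) in slow, 23467 to 45166 in bulk and 1991 to 5547 in fast MEF, and 6 of the 10 were higher in slow than in bulk MEF by edgeR's test with adjustment over all genes, under which 5.51% of all genes were higher. Without 1 library 4 to 6 of them passed. The collagen gene Col1a1 was the highest of the 10 in every slow and bulk library. At an unadjusted p under 0.05 by edgeR 1 of the 10 was lower in slow MEF. Thy1 was at 2852 to 3607 CPM in slow and 3562 to 4527 CPM in bulk MEF. Markers of macrophages summed to 3.33 to 191 CPM in slow and 231 to 365 CPM in bulk MEF, without overlap, and the complement gene trio C1qa, C1qb and C1qc was at 0 in slow MEF replicate 4. C1qc was the highest of these markers in every bulk library, at 87.1, 175, 105 and 170 CPM. Not every marker followed the sum. Cd68 was at 2.62, 43.8, 6.83 and 0.445 CPM in slow and 19.1, 2.16, 24.7 and 9.88 CPM in bulk MEF. In slow MEF replicate 2, Cd68, Lyz2 and Fcer1g lay above every bulk library. By edgeR none of the 8 tested macrophage markers passed, 3 were lower at an unadjusted p under 0.05, and DESeq2 called 1; without slow MEF replicate 2 both C1qb (-4.60, edgeR adjusted p = 0.0498) and Fcer1g (-4.20, edgeR adjusted p = 0.0434) passed as lower. Pericyte and smooth muscle markers summed to 56.8 to 98.5 CPM in slow and 316 to 480 CPM in bulk MEF, with Cspg4 and Mcam past the threshold. Not all of them followed this sum. Abcc9 was at 0.997, 4.98, 1.34 and 2.11 CPM in slow MEF and at 0 to 0.488 CPM in bulk MEF. Notch3 was at 8.61 to 32.9 CPM in slow MEF and at 0 to 33.9 CPM in bulk MEF. Of 6 tested, 3 were lower and 0 higher at an unadjusted p under 0.05 by edgeR. The part of such cells in the differences below was not tested, and in RNA from many cells fewer cells of a type and less RNA per cell cannot be told apart.

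None of the 4 factor genes passed as higher in slow than in bulk MEF by edgeR, with Sox2 higher at an unadjusted p under 0.05 and called by DESeq2, while all 4 were lower in slow than in fast MEF. Sox2 stood at 5.86, 10.3, 19.2 and 4.11 CPM in slow MEF replicates 1 to 4 and at 0.876, 0.412, 4.91 and 0.122 CPM in bulk MEF, and the groups overlapped. Its log2 fold change of slow over bulk MEF was 2.64 ± 1.005 (SE), with a 95% interval of 0.44 to 4.83 that did not survive adjustment over all genes (edgeR adjusted p = 0.122). Values in brackets from here on are log2 fold changes of slow over bulk MEF ± SE, and CPM values stand in the order of replicates 1 to 4. Without bulk MEF replicate 3, which held 4.91 CPM, Sox2 passed (4.29, edgeR adjusted p = 0.0263). Fast MEF stood at 211, 220.4, 450.4 and 390.5 CPM, above every slow library. Klf4 was at 40.8, 151, 139 and 97.8 CPM in slow and 136, 136, 174 and 135 CPM in bulk MEF (-0.46 ± 0.37, edgeR adjusted p = 0.454, 95% interval -1.27 to 0.34). The interval leaves room for a loss of over 2-fold and for a small gain, so equality is not shown. Fast MEF had 452, 541, 1039 and 815 CPM of Klf4, each above every slow library. Myc was the one factor past the threshold, and it was lower in slow MEF: 65.2, 56.7, 89.8 and 43.2 CPM against 109, 115, 289.6 and 145 CPM in bulk MEF (-1.38 ± 0.37, edgeR adjusted p = 0.0377). That call rests on few libraries. It was lost without bulk MEF replicate 3 (-0.997, edgeR adjusted p = 0.0948) or 4 (-1.44, edgeR adjusted p = 0.0652) and without slow MEF replicate 1 (-1.40, edgeR adjusted p = 0.0753), 2 (-1.33, edgeR adjusted p = 0.0945) or 4 (-1.24, edgeR adjusted p = 0.0833). Counts per gene do not separate induced transgenes from endogenous genes.

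The first question is which genes set slow MEF of an induced culture apart from untreated fibroblasts. Over all genes, 1181 passed the threshold (edgeR adjusted p under 0.05), 10.5% of those tested. Of these, 620 were higher in slow MEF (5.51%) and 561 lower (4.99%). The 2 directions differed in size: the higher genes had a median log2 fold change of 2.61 and 158 of them changed at least 16-fold, whereas the lower genes had a median of -1.65 and 16 changed at least 16-fold. The median over all tested genes was 0.03, near 0 as the scaling of the libraries sets it. In 589 of the higher and 532 of the lower genes the 4 slow libraries did not overlap the 4 bulk libraries, and over all tested genes this held for 9.89% with slow MEF above and 8.56% with slow MEF below. The call held in all 8 fits with 1 library left out for 265 higher and 277 lower genes, and the genes described below are mostly taken from these. The counts fell to 386 higher without bulk MEF replicate 4 and to 405 higher and 354 lower without slow MEF replicate 3. With all 24 libraries in 1 fit, 56 genes passed.

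**Figure D1:**
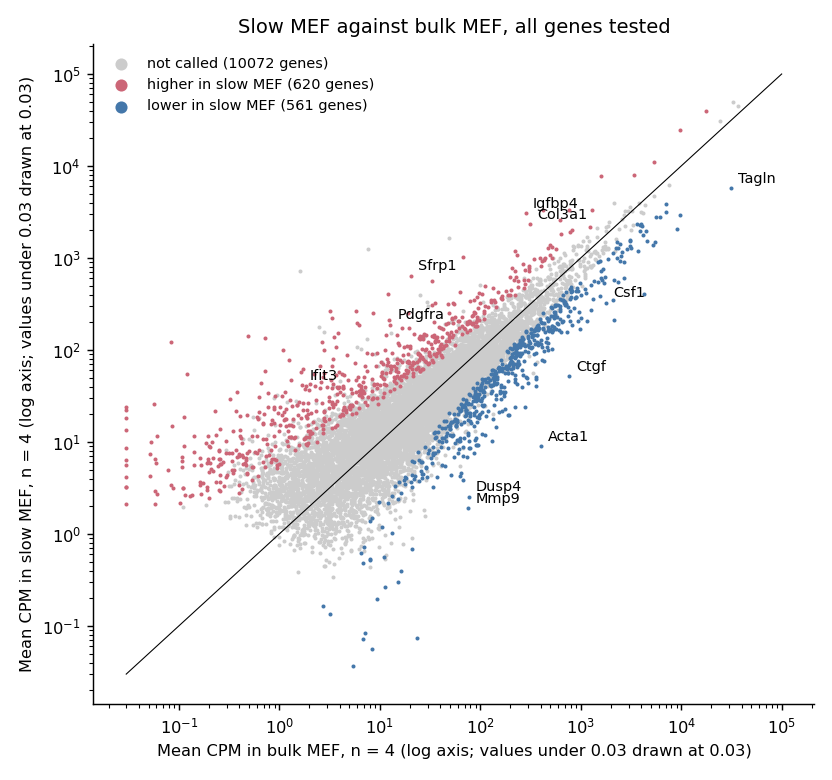
Mean CPM of each tested gene in slow MEF (vertical) against bulk MEF (horizontal), both on log axes, with means over 4 libraries and the diagonal of equal level. The 620 genes higher in slow MEF spread widely above the diagonal, many from below 1 CPM in bulk MEF, while the 561 lower genes lie in a band closer to it.

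The 12 highest and 12 lowest genes past the threshold, taken without overlap between groups and at 20 CPM or more, were of many kinds. Among the highest, Serpina3n, a secreted inhibitor of serine proteases made in acute phase responses, went from 3 counts over the 4 bulk libraries to 124, 125, 92.8 and 149 CPM in slow MEF, a ratio of 1480.05 (exact counting interval 506 to 7179.8). Its fitted log2 fold change was 10.27 ± 0.67, edgeR adjusted p = 1.72e-05, or 11.20 without bulk MEF replicate 3. Pamr1, a secreted peptidase-domain protein, had no count in bulk MEF and 20.8, 25.4, 27.02 and 23.6 CPM in slow MEF, at least 287-fold higher when bulk MEF are given the floor of 3 counts over the group. These intervals and bounds cover counting error only. Islr, a membrane protein of mesenchymal stromal cells, had 4 counts in bulk MEF, all in replicate 4, and 114, 39.1, 36.1 and 29.9 CPM in slow MEF (8.71 ± 1.06, edgeR adjusted p = 0.000763). It stood at 11.91 without bulk MEF replicate 4 and at 8.05 without slow MEF replicate 1. These 3 genes code for secreted or surface proteins that bulk MEF hardly expressed. In the other direction, Lce1h, of the late cornified envelope family of the epidermis, had 34.2, 49.4, 8.54 and 1.71 CPM in bulk MEF and 2 counts in slow MEF, a ratio of 422 (exact counting interval 116 to 3488). Its fitted value of -8.29 ± 1.40, edgeR adjusted p = 0.0043 became -7.61 without bulk MEF replicate 2 and -10.73 without slow MEF replicate 3. Acta1, skeletal muscle alpha actin, fell from 448, 405, 348 and 404 CPM to 12.3, 3.16, 9.20 and 11.1 CPM (-5.50 ± 0.44, edgeR adjusted p = 4.48e-05). Des, the intermediate filament protein of muscle and the other skeletal muscle marker tested, went from 29.5 ± 24.2 to 4.78 ± 6.58 CPM and did not pass (-2.65 ± 1.003, edgeR adjusted p = 0.119), except without slow MEF replicate 1 (-4.31, edgeR adjusted p = 0.0245) and in DESeq2. Myod1, which defines muscle cells, was at or near 0 in every library of both groups. Pdlim1, which binds alpha-actinin in actin fibres, fell from 281 ± 40.3 to 24.1 ± 14.1 CPM (SD, n = 4 each; -3.58 ± 0.46, edgeR adjusted p = 0.001). Mgll, the lipase of monoacylglycerols, fell by a like amount (-3.70 ± 0.54, edgeR adjusted p = 0.00196), from 131 ± 57.3 to 10.3 ± 6.39 CPM.

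Some genes were grouped into 42 lists by function, with 848 members counted list by list. The lists were written with earlier results of these data known. The shares given here and below therefore describe the listed genes and are no independent test. The largest shares of members lower in slow MEF were those of the contractile, focal adhesion and actin, Erk feedback and serum response and Yap lists. The largest shares higher were those of the complement, collagen, LIF signalling, matrix proteoglycan and glycoprotein, cytokine, interferon and insulin-like growth factor lists. The complement list does not hold C1qa, C1qb and C1qc. By edgeR no member passed among 28 genes of G2 and mitosis, 7 of G1, 15 immediate early genes and 15 of DNA methylation and Polycomb. At an unadjusted p under 0.05, 2 of the G1 genes and 8 of the immediate early genes were lower, and 1 immediate early gene and 2 of DNA methylation and Polycomb were higher. DESeq2 called 4 immediate early genes lower and 1 gene of DNA methylation and Polycomb higher.

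**Figure D2:**
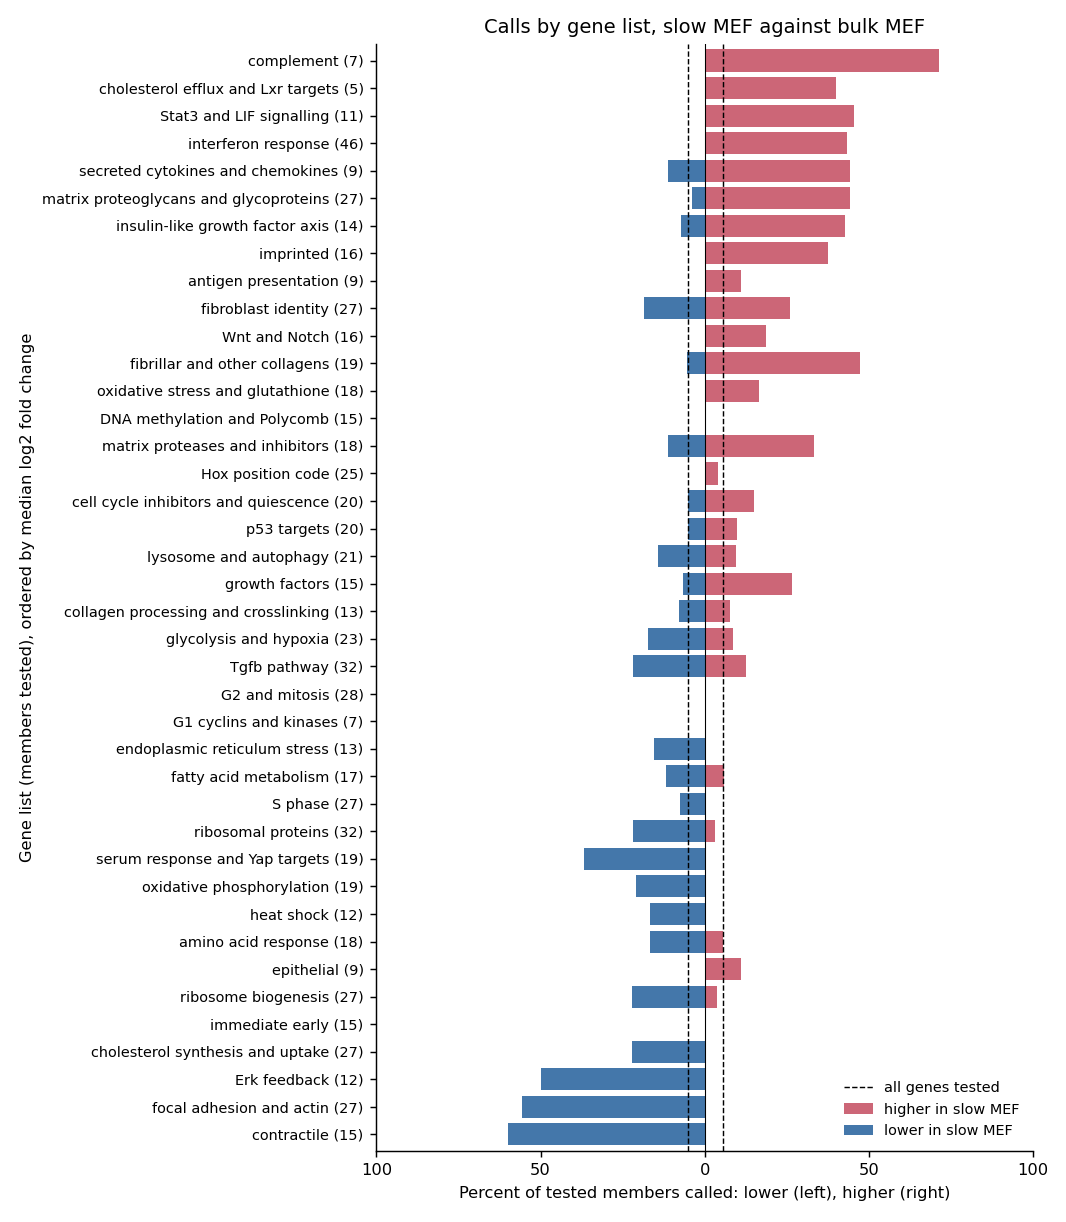
Percent of tested members past the threshold for each gene list, lower in slow MEF to the left and higher to the right, with the share among all genes tested as dashed lines (4.99% and 5.51%). Contractile, adhesion and Erk feedback lists reach the farthest left, complement, matrix and interferon lists far to the right, and the mitosis list shows no bar.

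Many interferon response genes were higher in slow MEF. Of 46 tested members 20 rose and none fell by edgeR (43.5% against 10.5% of all genes); at an unadjusted p under 0.05 26 were higher and 3 lower, and DESeq2 called 24 higher and 1 lower. The slow and bulk libraries did not overlap for 25 members, and the median log2 fold change was 1.82 against 0.03 over all genes. Without slow MEF replicate 3 the count was 13, and without any other single library it was 14 to 19. Within the list, 5 of 8 guanylate-binding proteins and immunity-related GTPases and 9 of 16 antiviral effectors rose, but 1 of 6 sensors of viral nucleic acid and 3 of 11 transcription factors and signalling genes. The effectors numbered 5 without bulk MEF replicate 4, the transcription factors 1 without slow MEF replicate 3, and the sensors 2 without bulk MEF replicate 3, or without slow MEF replicate 1 or 4.

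Many genes of this response carry an interferon-stimulated response element (ISRE), bound by the complex that holds Irf9 or by related factors. The core searched was GAAA, any 2 bases and GAAA again, on either strand, in the 250 bases before each gene's start in RefSeq on GRCm38.p6, a later build than the mm9 of the counts. It was found in 15 of 43 list members with a promoter entry (34.9%), in 3.46% of 27025 genes and in 3.01% of the tested genes. Among members that rose and have an entry it was in 8 of 14 (57.1%), and among tested members that did not pass in 3 of 22 (13.6%). A match describes letters and is no evidence of binding. The following stretches, on the gene's strand with the core in capitals, belong to some of the 8 members that rose and hold it. Stat2, Ifitm2 and Isg15 are not shown. The likeness of the copies within the core is set by the search.
Ifit1 (chr19:34640765-34640833, plus strand): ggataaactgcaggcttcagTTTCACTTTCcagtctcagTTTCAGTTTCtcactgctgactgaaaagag
Ifit3 (chr19:34583353-34583436, plus strand): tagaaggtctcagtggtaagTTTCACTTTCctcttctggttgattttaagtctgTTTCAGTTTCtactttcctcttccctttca
Gbp7 (chr3:142530263-142530312, plus strand): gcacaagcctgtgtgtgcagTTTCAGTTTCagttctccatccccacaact
Igtp (chr11:58199502-58199551, plus strand): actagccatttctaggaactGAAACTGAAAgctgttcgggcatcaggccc
Irgm2 (chr11:58214893-58214942, plus strand): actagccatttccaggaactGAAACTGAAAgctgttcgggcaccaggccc
Ifit1 and Ifit3, neighbours on chromosome 19, hold the core a pair of times each. The stretches of Igtp and Irgm2, neighbouring genes on chromosome 11, are identical at 48 of 50 bases. How reads shared by related genes were counted is not given in the sources used here, so the separate counts of members of 1 gene family are uncertain.

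Irf7, a transcription factor that amplifies the interferon response, was at 15.6, 19.1, 29.5 and 13.002 CPM in slow MEF and was counted in bulk MEF only in replicate 1, at 1.64 CPM (5.47 ± 1.26, edgeR adjusted p = 0.0191). It stood at 10.37 without bulk MEF replicate 1 and missed the threshold without slow MEF replicate 3 (5.20, edgeR adjusted p = 0.0535). Irf9, a DNA-binding part of the complex that interferons activate, was at 68.5, 55.6, 74.2 and 85.2 CPM in slow and 25.3, 73.8, 28.3 and 3.54 CPM in bulk MEF, and its bulk libraries were too scattered for a call (1.10 ± 0.65, edgeR adjusted p = 0.302, 95% interval -0.31 to 2.52).

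Among the effectors, Ifit3, which binds viral RNA together with Ifit1, was at 77.3, 41.9, 17.4 and 28.6 CPM in slow and 0.657, 1.03, 1.75 and 3.29 CPM in bulk MEF (4.59 ± 0.69, edgeR adjusted p = 0.00226). Ifit1 was at 28.9, 27.7, 10.99 and 19.2 CPM in slow and 0, 1.24, 0.234 and 0 CPM in bulk MEF (5.77 ± 1.09, edgeR adjusted p = 0.00746), and at 7.86 without bulk MEF replicate 2. These 2 genes, whose promoter stretches stand above, were near the floor in untreated fibroblasts and without overlap between groups. Ifitm3, a membrane protein that blocks virus entry, was expressed in both groups, at 1222, 1228, 1133 and 1169 CPM in slow and 209, 372, 135 and 178 CPM in bulk MEF (2.39 ± 0.30, edgeR adjusted p = 0.000962). Usp18, a protease that damps interferon signalling, had 2 counts in bulk MEF and 8.35, 7.48, 8.17 and 2.33 CPM in slow MEF, a ratio of 115 (exact counting interval 31.5 to 956); its fitted value was 8.82 without bulk MEF replicate 3, which held both counts. Both Ifit genes and Usp18 thus had few or no counts in bulk MEF, whereas Ifitm3 rose from a high level.

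The GTPases that act on intracellular parasites and bacteria moved unequally. Iigp1 had no count in bulk MEF and 5.98, 6.23, 3.86 and 6.56 CPM in slow MEF, at least 68.7-fold higher. Gbp7 was at 6.11, 9.39, 10.4 and 17.002 CPM in slow and 0.547, 1.13, 1.17 and 0.122 CPM in bulk MEF (3.82 ± 0.78, edgeR adjusted p = 0.0111). Irgm2 was at 12.6, 9.97, 12.2 and 13.1 CPM in slow and 0, 0, 0.819 and 0.122 CPM in bulk MEF (5.62 ± 1.09, edgeR adjusted p = 0.00835), and at 7.81 without bulk MEF replicate 3. For its neighbour Igtp the call (3.26 ± 0.85, edgeR adjusted p = 0.0324) held only without bulk MEF replicate 3 (4.00); without any other single library the adjusted p lay between 0.0501 (slow MEF replicate 1) and 0.0728 (slow MEF replicate 3). Irgm1, of the same family and with the core in its promoter, had a value in the other direction, 12.8 ± 1.62 CPM in slow and 23.3 ± 10.6 CPM in bulk MEF (-0.88 ± 0.44, edgeR adjusted p = 0.228). In antigen presentation, B2m, the light chain of class I molecules, rose from 139 ± 39.8 to 347 ± 46.1 CPM (1.30 ± 0.28, edgeR adjusted p = 0.0141) and was the 1 of 9 members past the threshold (2 without slow MEF replicate 1). The heavy chain H2-K1 did not pass (-0.04 ± 0.34, edgeR adjusted p = 0.951, 95% interval -0.78 to 0.69).

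**Figure D3:**
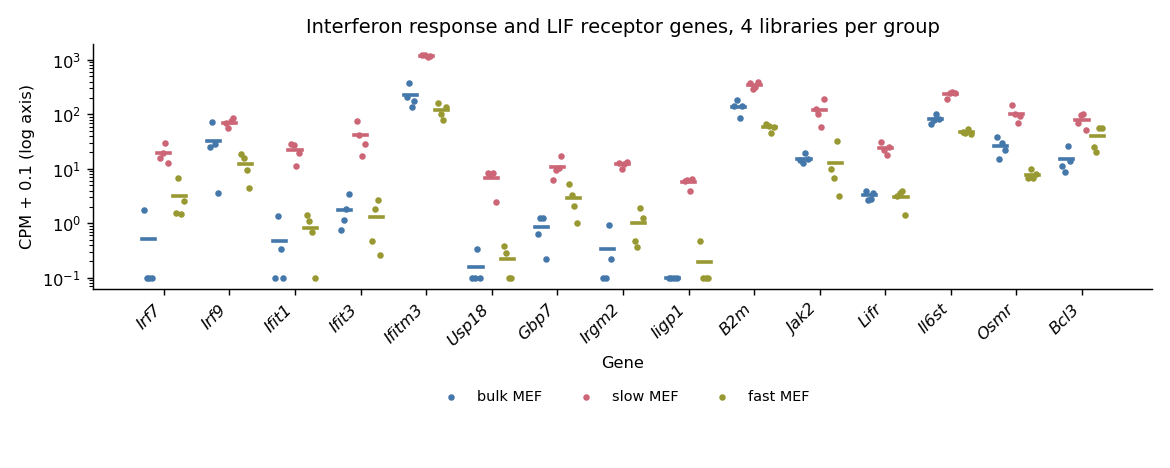
CPM plus 0.1 (log axis) of interferon response and LIF receptor genes in each library of bulk, slow and fast MEF, with bars at the group means over 4 libraries. Ifit3, Ifitm3, Iigp1, Jak2, Lifr and Il6st show all slow libraries above all bulk libraries, and for these genes the fast libraries lie nearer to bulk MEF than to slow MEF.

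The receptor side of LIF signalling was higher in slow MEF, which had been grown with LIF. Of 11 tested members of the list 5 rose (45.5%), by edgeR as by DESeq2 none fell, and the median log2 fold change was 1.94. Lifr, the LIF-specific receptor chain, stood at 30.5, 21.8, 17.5 and 24.9 CPM in slow and 3.83, 2.58, 2.69 and 3.54 CPM in bulk MEF (2.88 ± 0.48, edgeR adjusted p = 0.00385). Il6st, the chain shared by the receptors of this cytokine family, was at 193, 248, 257 and 248 CPM in slow and 66.8, 78.5, 101 and 84.01 CPM in bulk MEF (1.50 ± 0.25, edgeR adjusted p = 0.004). Both rose without overlap. Osmr, the receptor chain for oncostatin M (1.96 ± 0.39, edgeR adjusted p = 0.00964), and Jak2, a receptor-bound kinase (2.95 ± 0.41, edgeR adjusted p = 0.0015), rose as well, as did Bcl3, a nuclear partner of the NF-kB subunits (2.41 ± 0.43, edgeR adjusted p = 0.00555). Fast MEF came from the same LIF medium and had less of these receptors than slow MEF: Lifr was at 2.94 ± 1.11 CPM in fast MEF (slow minus fast 3.01 ± 0.50, edgeR adjusted p = 0.00153) and Il6st at 47.8 ± 4.52 CPM (2.31 ± 0.23, edgeR adjusted p = 8.32e-05).

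Of 9 secreted cytokines and chemokines 4 rose and 1 fell, and 2 rose without bulk MEF replicate 2, 3 or 4. Cxcl1, a neutrophil attractant, had 2 counts in bulk MEF, both in replicate 2, and 3.99, 4.12, 4.16 and 4.78 CPM in slow MEF, a ratio of 75.98 (exact counting interval 20.7 to 633). Its fitted log2 fold change of 5.94 ± 1.10, edgeR adjusted p = 0.00721 became 8.19 without that library. Cxcl5, of the same kind, was at 15.1, 15.2, 18.4 and 4.67 CPM in slow and 0.657, 0, 0 and 0.975 CPM in bulk MEF (4.96 ± 1.12, edgeR adjusted p = 0.0178), and at 5.80 without bulk MEF replicate 4. Csf1, the growth factor of macrophages, went the other way, from 1746, 1839, 1579 and 1949 CPM in bulk to 285, 244, 396 and 384 CPM in slow MEF (-2.46 ± 0.22, edgeR adjusted p = 0.000109). The summed macrophage markers moved in the same direction as Csf1, though not every marker did, as given above, and their part was not tested. Of 7 complement genes 5 rose, C1ra, C1s, Serping1, Cd55 and the C1q-related C1qtnf1. The list leaves out the complement genes C1qa (-0.94 ± 1.05, edgeR adjusted p = 0.603), C1qb (-2.64 ± 1.19, edgeR adjusted p = 0.184) and C1qc (-2.78 ± 1.14, edgeR adjusted p = 0.148). These are held among the macrophage markers and had negative values, so the share describes the listed genes only. Each of the 5 calls was lost without at least 4 of the 8 libraries, and the count was lower without any of them: 3 without bulk MEF replicate 1, 4 without replicate 2, 2 without replicate 3, 1 without replicate 4, 1 without slow MEF replicate 1, 2 or 3 and 3 without slow MEF replicate 4.

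Contractile and adhesion genes fell together. Of 15 contractile genes 9 fell (60.0% against 4.99% of all genes), with a median log2 fold change of -1.43. Of 27 focal adhesion and actin genes 15 fell (55.6%), with a median of -1.06, and of 19 serum response and Yap genes 7 fell (36.8%). By edgeR none of these 3 lists had a member that rose; at an unadjusted p under 0.05, and by DESeq2, 1 serum response and Yap gene was higher. With 1 library left out these counts lay between 8 and 10, 12 and 14, and 5 and 6.

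Acta2, smooth muscle alpha actin and the usual mark of a myofibroblast, was at 8888, 9900.1, 7427 and 10014 CPM in bulk MEF and 1954, 2451, 1965 and 1792 CPM in slow MEF (-2.17 ± 0.17, edgeR adjusted p = 3.56e-05). Tagln, an actin-bundling protein of the same cells, was at 27768, 40195, 25184 and 32022 CPM in bulk and 5550.3, 5539, 5705 and 6271 CPM in slow MEF (-2.46 ± 0.17, edgeR adjusted p = 1.87e-05). The slow libraries lay within a narrow range for both genes and far below every bulk library. Cnn1, calponin, which restrains actomyosin, fell further, from 1988, 2742, 1818 and 2046 CPM to 114, 168, 238 and 326 CPM (-3.36 ± 0.33, edgeR adjusted p = 0.000201). Myl9, the regulatory light chain of non-skeletal myosin, fell from 5238 ± 442 to 1391 ± 195 CPM (-1.93 ± 0.17, edgeR adjusted p = 9.6e-05), and Tpm1, tropomyosin, from 5529 ± 824 to 1486 ± 103 CPM (-1.91 ± 0.17, edgeR adjusted p = 9.6e-05). The pericyte and smooth muscle markers Cspg4 (-3.32 ± 0.39, edgeR adjusted p = 0.000667) and Mcam (-3.26 ± 0.52, edgeR adjusted p = 0.00327) fell beside them. Not every marker of that list did, as given above, and the part of such cells was not tested.

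The cytoskeletal actins fell too. Actb, cytoplasmic beta actin and often taken as a constant reference gene, was at 9812, 9598, 7925 and 11873 CPM in bulk and 2783, 3053, 2528 and 3354 CPM in slow MEF (-1.76 ± 0.18, edgeR adjusted p = 0.000225), and Actg1, gamma actin, fell by a like amount (-1.66 ± 0.18, edgeR adjusted p = 0.000415). Fast MEF had 2293 ± 201 CPM of Actb, not past the threshold against slow MEF (slow minus fast 0.35 ± 0.15, edgeR adjusted p = 0.11). Zyx, a sensor of tension at focal adhesions, fell from 2437, 1303, 2306 and 2316 to 373, 348, 343 and 317 CPM (-2.62 ± 0.23, edgeR adjusted p = 9.11e-05). Itga5, the fibronectin receptor chain, fell from 725 ± 169 to 158 ± 36.8 CPM (-2.21 ± 0.25, edgeR adjusted p = 0.000492), Actn1, which crosslinks actin, from 1546 ± 229 to 384 ± 84.4 CPM (-2.02 ± 0.22, edgeR adjusted p = 0.000415), and Vcl, vinculin, from 617 ± 73.8 to 297 ± 69.5 CPM (-1.06 ± 0.23, edgeR adjusted p = 0.0143). The genes that fell thus included adaptors of the focal adhesion, an integrin chain and the actin they bind.

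Ctgf and Cyr61, secreted matricellular proteins encoded by classical Yap targets, differed in size. Ctgf fell from 828, 672, 777 and 785 CPM in bulk MEF to 59.8, 74.7, 30.4 and 42.9 CPM in slow MEF (-3.90 ± 0.30, edgeR adjusted p = 3.56e-05). Cyr61 was at 1137, 1099, 1009 and 1189 CPM in bulk and 698, 1057, 615 and 654 CPM in slow MEF and did not pass (-0.58 ± 0.21, edgeR adjusted p = 0.102), though it did without slow MEF replicate 2 (-0.77, edgeR adjusted p = 0.0459). Ankrd1, a nuclear protein of stretched muscle and another such target, fell from 153 ± 23.8 to 21.1 ± 12.3 CPM (-2.87 ± 0.48, edgeR adjusted p = 0.00435), Nuak2, a kinase, from 61.8 ± 5.27 to 8.35 ± 5.10 CPM (-2.91 ± 0.51, edgeR adjusted p = 0.00555), and Axl, a receptor kinase, from 484 ± 77.3 to 219 ± 62.2 CPM (-1.16 ± 0.25, edgeR adjusted p = 0.0145). The coactivator gene Yap1 itself did not pass (0.28 ± 0.36, edgeR adjusted p = 0.666, 95% interval -0.52 to 1.08). Serum response factor, Srf, fell (-1.33 ± 0.35, edgeR adjusted p = 0.0341), a call lost without bulk MEF replicate 1 (-1.25, edgeR adjusted p = 0.0779), 2 (-1.33, edgeR adjusted p = 0.0621) or 4 (-1.32, edgeR adjusted p = 0.0716), or without slow MEF replicate 2 (-1.45, edgeR adjusted p = 0.0553) or 3 (-1.42, edgeR adjusted p = 0.0636).

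Yap acts through Tead factors, which bind GGAATG, and serum response factor binds the CArG box. GGAATG, on either strand of the 250 bases before the start, was found in 15 of 27 contractile, serum response and Yap genes with a promoter entry (55.6%) against 14.4% of all genes, 12.7% of the tested genes. It was in 7 of 12 members that fell (58.3%) and in 8 of 15 of the others (53.3%). The CArG box was in 3 of the 27 (1.62% of all genes and 1.43% of the tested genes), namely Srf, Cnn2 and Myl9, all of which fell. The stretches below show the GGAATG letters, or their reverse complement CATTCC, in 2 genes that fell and in Cyr61, and the CArG box in Myl9 and Srf, in capitals on the gene's strand in RefSeq, GRCm38.p6.
Axl (chr7:25788941-25788983, minus strand): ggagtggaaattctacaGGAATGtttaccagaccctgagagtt
Crim1 (chr17:78200149-78200194, plus strand): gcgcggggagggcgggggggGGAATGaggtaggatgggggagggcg
Cyr61 (chr3:145650063-145650108, minus strand): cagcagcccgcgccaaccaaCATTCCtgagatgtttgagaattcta
Myl9 (chr2:156775283-156775332, plus strand): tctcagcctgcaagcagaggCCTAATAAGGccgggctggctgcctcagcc
Srf (chr17:46556195-46556264, minus strand): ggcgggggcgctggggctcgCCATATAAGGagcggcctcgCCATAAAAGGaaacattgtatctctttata
Crim1, a membrane protein that binds growth factors, fell from 87.3 ± 41.4 to 19.4 ± 10.4 CPM (-2.18 ± 0.48, edgeR adjusted p = 0.0168).

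**Figure D4:**
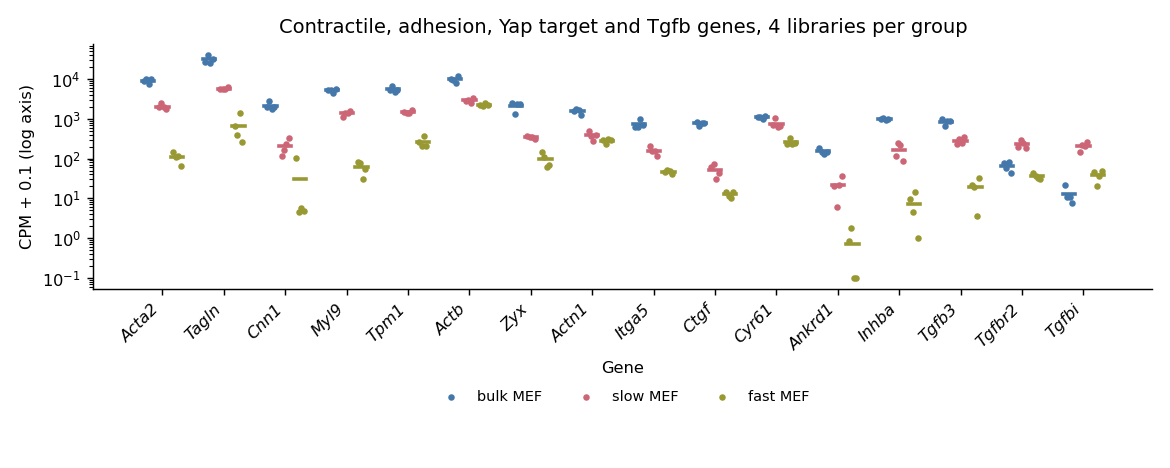
CPM plus 0.1 (log axis) of contractile, adhesion, Yap target and Tgfb genes in each library of bulk, slow and fast MEF, with bars at the group means over 4 libraries. From Acta2 to Tgfb3 the slow libraries lie below bulk MEF, with overlap for none of these genes but Cyr61, while Tgfbr2 and Tgfbi lie above bulk MEF.

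Genes of the Tgfb pathway moved in both directions. Of 12 ligands and latency genes 3 fell, of 12 receptors and Smads 3 rose and 1 fell, and of 8 targets 3 fell and 1 rose. Among all genes 5.51% were higher and 4.99% lower. Each role held values of both signs: 4 positive and 8 negative among ligands and latency genes, 8 and 4 among receptors and Smads, and 3 and 5 among targets. Among the ligands, Inhba, the subunit of activin A, fell from 993, 1031, 962 and 994 CPM to 113, 249.5, 222 and 86.3 CPM (-2.60 ± 0.32, edgeR adjusted p = 0.000892), and Tgfb3 from 851 ± 130.03 to 285 ± 52.9 CPM (-1.59 ± 0.22, edgeR adjusted p = 0.0015). Tgfb1 had 163 ± 49.8 CPM in bulk and 87.8 ± 24.9 CPM in slow MEF and did not pass (-0.91 ± 0.33, edgeR adjusted p = 0.103). Among the receptors, Tgfbr2 rose from 78.8, 58.8, 81.9 and 44.4 CPM to 193, 289, 246 and 182 CPM (1.77 ± 0.29, edgeR adjusted p = 0.00379), and the coreceptor Tgfbr3 from 3.53 ± 2.65 to 138 ± 39.3 CPM (5.28 ± 0.54, edgeR adjusted p = 0.000263), or 5.88 without bulk MEF replicate 3. The receptors named here thus rose while Inhba and Tgfb3 fell. The inhibitory Smad7, itself induced by the pathway, fell from 261 ± 46.6 to 39.4 ± 27.3 CPM (-2.73 ± 0.44, edgeR adjusted p = 0.00356), or -3.36 without slow MEF replicate 4. Among the targets, Tgfbi, a secreted adhesion protein named for its induction by Tgfb, rose from 21.5, 10.5, 10.6 and 7.32 CPM to 150.05, 225, 207 and 264 CPM (4.06 ± 0.40, edgeR adjusted p = 0.000225). Every slow library lay above every bulk library for Tgfbi.

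Many matrix genes were higher in slow MEF. Of 9 proteoglycan genes 7 rose (77.8%), of 18 glycoprotein genes 5 rose and 1 fell, and of 19 collagen genes 9 rose and 1 fell. The collagen count depended on single libraries: it was 2 without bulk MEF replicate 1, 3 without bulk MEF replicate 2, 4 without bulk MEF replicate 4, or without slow MEF replicate 1 or 3, and 5 without slow MEF replicate 2. The 1 collagen gene that fell, Col8a1, named after its values were seen (-1.85 ± 0.45, edgeR adjusted p = 0.0244), missed the threshold without bulk MEF replicate 1 (-1.63, edgeR adjusted p = 0.0629) and without slow MEF replicate 1 (-1.81, edgeR adjusted p = 0.0592) or 2 (-1.79, edgeR adjusted p = 0.0634). Without slow MEF replicate 1, 2 other collagen genes passed as lower. The glycoproteins that rose numbered 3 without slow MEF replicate 3, and the proteoglycans 7 or 8 without any 1 library.

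Decorin, Dcn, which binds collagen fibrils and Tgfb, was at 61.9, 35.97, 37.3 and 57.7 CPM in bulk and 381, 359, 277 and 233 CPM in slow MEF (2.67 ± 0.30, edgeR adjusted p = 0.000504). Biglycan, Bgn, its relative, rose from 5761, 5506, 5039.7 and 5284 CPM to 12219.9, 12252, 9576 and 9721 CPM (0.999 ± 0.14, edgeR adjusted p = 0.00182). Podocan, Podn, rose from 19.2 ± 9.62 to 249.8 ± 48.3 CPM (3.69 ± 0.41, edgeR adjusted p = 0.00044) and asporin, Aspn, from 48.001 ± 14.7 to 195 ± 22.8 CPM (2.01 ± 0.29, edgeR adjusted p = 0.00203). These are leucine-rich repeat proteins of the matrix, and none of the 4 overlapped between groups. Lumican, Lum, was nearly absent from bulk MEF, at 0.328, 3.09, 1.87 and 0 CPM, and at 54.3, 70.2, 33.8 and 32.4 CPM in slow MEF (5.13 ± 0.93, edgeR adjusted p = 0.00618), or 5.98 without bulk MEF replicate 2. Matn2, a filament-forming matrilin, rose (2.80 ± 0.36, edgeR adjusted p = 0.000995), as did Fbln1, fibulin 1 (2.11 ± 0.28, edgeR adjusted p = 0.00126), whereas Fbln5, the fibulin needed for elastic fibres, fell from 678 ± 105 to 320.4 ± 43.2 CPM (-1.10 ± 0.21, edgeR adjusted p = 0.00861).

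Of the collagens, Col3a1, the fibrillar collagen of loose tissue, rose from 287, 322, 476 and 180.5 CPM to 3793, 2629, 1974 and 982 CPM (2.88 ± 0.40, edgeR adjusted p = 0.0015), and Col6a2, of the microfibrils around cells, from 492 ± 152 to 1074 ± 113 CPM (1.11 ± 0.24, edgeR adjusted p = 0.014). Col1a1, of the main fibrillar collagen, was at 11582, 22933, 25168 and 10914 CPM in bulk and 42424, 46876, 39873 and 28206 CPM in slow MEF (1.14 ± 0.26, edgeR adjusted p = 0.0194). That call was lost without bulk MEF replicate 1 (0.98, edgeR adjusted p = 0.0558) or 4 (0.96, edgeR adjusted p = 0.0519), or without slow MEF replicate 1 (1.10, edgeR adjusted p = 0.0516), 2 (1.05, edgeR adjusted p = 0.0569) or 3 (1.14, edgeR adjusted p = 0.0512). The basement membrane collagen Col4a1 had a negative value, 502 ± 252 CPM in slow and 1039 ± 299.8 CPM in bulk MEF (-1.07 ± 0.36, edgeR adjusted p = 0.0843), which passed without slow MEF replicate 1 (-1.38, edgeR adjusted p = 0.0446). Fibronectin, Fn1, and osteonectin, Sparc, 2 abundant matrix proteins, did not pass (Fn1 -0.68 ± 0.31, edgeR adjusted p = 0.195; Sparc 0.27 ± 0.12, edgeR adjusted p = 0.176).

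Among 14 matrix proteases 5 rose and 1 fell, and 3 rose without bulk MEF replicate 1 or 4, or without slow MEF replicate 2 or 3. Mmp13, a collagenase, was at 7.23, 2.78, 2.81 and 0.732 CPM in bulk and 363, 263, 148 and 126 CPM in slow MEF (6.03 ± 0.67, edgeR adjusted p = 0.00044), or 6.70 without bulk MEF replicate 1. Mmp3, stromelysin, rose from 0.876, 1.34, 1.05 and 0.244 CPM to 41.6, 26.6, 10.99 and 16.6 CPM (4.72 ± 0.70, edgeR adjusted p = 0.00215). Mmp9, a gelatinase also made by macrophages, fell from 90.8, 139, 25.6 and 48.9 CPM to 2.62, 2.59, 1.34 and 1.11 CPM (-5.33 ± 0.63, edgeR adjusted p = 0.000709) and had no count in any fast library. The summed macrophage markers were lower in slow MEF too, though not every marker was, and their part was not tested. Mmp13 and Mmp9 thus moved in opposite directions without overlap. Of the inhibitors, Timp3 rose (1.02 ± 0.19, edgeR adjusted p = 0.00776) and Timp1 fell (-1.39 ± 0.31, edgeR adjusted p = 0.0157).

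Fibroblast identity genes did not move as one. Of 27 tested 7 rose and 5 fell, and the 7 became 3 without bulk MEF replicate 4 and 4 without slow MEF replicate 1, 3 or 4. Pdgfra, the receptor for platelet-derived growth factor that marks mesenchymal progenitors, rose from 28.6, 9.89, 5.15 and 6.95 CPM to 153, 218, 204 and 181 CPM (3.88 ± 0.54, edgeR adjusted p = 0.0015), or 4.65 without bulk MEF replicate 1. Ly6a, the surface antigen Sca-1, rose from 16.9 ± 4.25 to 89.1 ± 20.6 CPM (2.39 ± 0.36, edgeR adjusted p = 0.00226), and Snai2, a mesenchymal transcription factor, from 19.2 ± 3.59 to 73.2 ± 27.4 CPM (1.91 ± 0.38, edgeR adjusted p = 0.00896). Cd44, the hyaluronan receptor, fell from 1112, 859, 859 and 1045 CPM to 274, 309, 257 and 191 CPM (-1.93 ± 0.22, edgeR adjusted p = 0.000468), and Vim, the intermediate filament vimentin, from 3191 ± 493 to 1272 ± 186 CPM (-1.35 ± 0.19, edgeR adjusted p = 0.00151). Thy1, the common surface marker of MEF, was at 3974, 4527, 3562 and 3874 CPM in bulk and 3019, 3607, 2852 and 3145 CPM in slow MEF and did not pass (-0.36 ± 0.15, edgeR adjusted p = 0.165), nor did the transcription factor Prrx1 (0.36 ± 0.27, edgeR adjusted p = 0.422) or the receptor Pdgfrb (0.34 ± 0.30, edgeR adjusted p = 0.506). Of 25 positional Hox genes 1 passed in slow against bulk MEF: Hoxc10 rose from 150.4 ± 35.8 to 432 ± 98.1 CPM (1.50 ± 0.27, edgeR adjusted p = 0.00573). The Hox count was 2 without bulk MEF replicate 1 or 3.

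**Figure D5:**
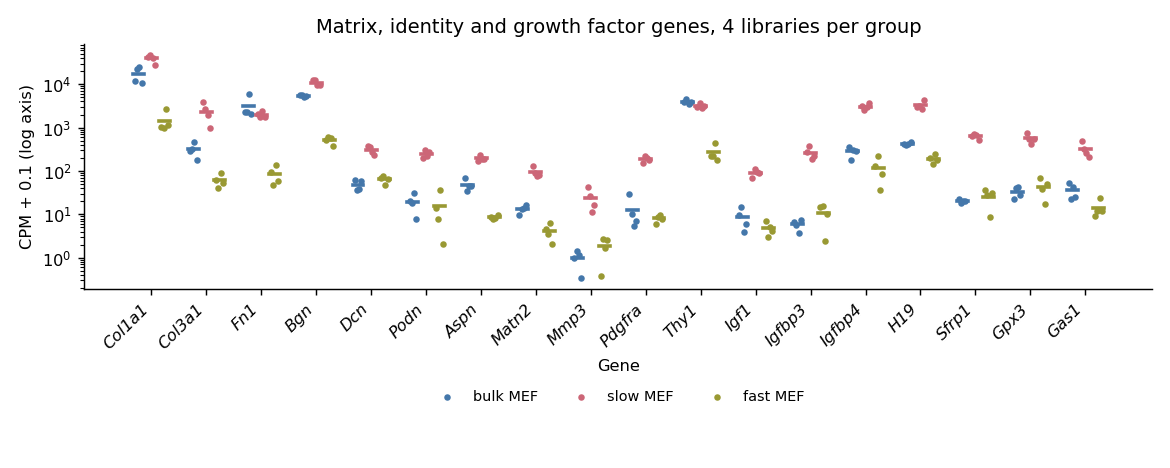
CPM plus 0.1 (log axis) of matrix, identity and growth factor genes in each library of bulk, slow and fast MEF, with bars at the group means over 4 libraries. Slow libraries lie above bulk MEF for Col3a1, Bgn, Dcn, Podn, Aspn, Matn2, Mmp3, Pdgfra, Igf1, Igfbp3, Igfbp4, H19, Sfrp1, Gpx3 and Gas1, and Fn1 overlaps between them.

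Insulin-like growth factor genes and imprinted genes were higher in slow MEF. Of 14 members of the insulin-like growth factor axis 6 rose and 1 fell, and 6 or 7 rose with any 1 library left out. The ligand Igf1 rose from 9.42, 14.6, 3.74 and 5.73 CPM to 67.9, 112, 92.2 and 91.01 CPM (3.41 ± 0.47, edgeR adjusted p = 0.0015). Igfbp3, which holds the ligands in the extracellular space, rose from 6.57, 5.67, 3.63 and 7.44 CPM to 269, 368, 192 and 226 CPM (5.47 ± 0.38, edgeR adjusted p = 1.87e-05), and Igfbp4 from 361, 182, 307 and 289 CPM to 3084, 2578, 2957 and 3609 CPM (3.41 ± 0.25, edgeR adjusted p = 2.19e-05). All 3 had slow libraries far above the bulk range. Igfbp5 rose (2.03 ± 0.30, edgeR adjusted p = 0.00207), whereas Igfbp7 fell from 486 ± 71.5 to 162 ± 55.4 CPM (-1.61 ± 0.28, edgeR adjusted p = 0.00483). Of 16 imprinted genes 6 rose (37.5%), and 4 to 6 with 1 library left out. H19 and Igf2 are held in both lists and rose, so the counts of the lists share these genes. H19, an imprinted RNA without a protein product, rose from 415, 394, 429 and 460.04 CPM to 3057, 3205, 2654 and 4309 CPM (2.95 ± 0.20, edgeR adjusted p = 1.87e-05), and the ligand Igf2, its neighbour, from 562 ± 76.6 to 1264 ± 267 CPM (1.15 ± 0.22, edgeR adjusted p = 0.00746). Mest (2.59 ± 0.44, edgeR adjusted p = 0.00454) and Peg3 (2.10 ± 0.38, edgeR adjusted p = 0.0062), expressed from the paternal copy, rose as well.

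Other secreted signals went both ways. Of 15 growth factors 4 rose and 1 fell, and the 4 became 2 without bulk MEF replicate 3 or 4, or without slow MEF replicate 1, 2 or 3. Hgf, hepatocyte growth factor, was the least even: slow MEF stood at 133, 20.3, 392 and 73.2 CPM and bulk MEF at 1.42, 1.03, 10.3 and 2.80 CPM (5.32 ± 0.999, edgeR adjusted p = 0.00744), with 6.41 without bulk MEF replicate 3 and 4.28 without slow MEF replicate 3. Kitl, stem cell factor, rose from 1.07 ± 0.792 to 19.5 ± 10.4 CPM (4.15 ± 0.91, edgeR adjusted p = 0.0154). Hbegf, a ligand of the epidermal growth factor receptor, fell from 311, 415, 271 and 431 CPM to 50.6, 27.2, 34.7 and 49.7 CPM (-3.15 ± 0.32, edgeR adjusted p = 0.000225). Of 16 Wnt and Notch genes 3 rose. Sfrp1, a secreted Wnt antagonist, rose evenly, with 22.99, 18.03, 20.6 and 20.2 CPM in bulk and 641, 719.7, 686 and 512 CPM in slow MEF (4.94 ± 0.25, edgeR adjusted p = 2.6e-06), and the Wnt receptor Fzd1 rose too (2.31 ± 0.38, edgeR adjusted p = 0.00385).

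Of 12 genes induced by Erk signalling as its own feedback 6 fell (50.0%), and 4 to 6 fell with 1 library left out. Dusp4, a phosphatase of Erk, was at 73.04, 123, 75.3 and 36.8 CPM in bulk and 0.499, 1.53, 2.52 and 5.67 CPM in slow MEF (-4.91 ± 0.71, edgeR adjusted p = 0.0019), or -5.69 without slow MEF replicate 4. Dusp5, another such phosphatase, was at 23.1, 12.7, 21.2 and 26.5 CPM in bulk and 0, 0.383, 1.93 and 0.445 CPM in slow MEF (-4.95 ± 0.93, edgeR adjusted p = 0.00746), or -6.15 without slow MEF replicate 3. The transcription factor Etv4 fell from 135 ± 52.2 to 17.6 ± 8.96 CPM (-2.96 ± 0.48, edgeR adjusted p = 0.00342) and Phlda1 from 266 ± 109.6 to 53.8 ± 35.2 CPM (-2.34 ± 0.47, edgeR adjusted p = 0.0103). The 15 immediate early genes, of which none passed, had a median log2 fold change of -0.79; Fos, the first of the list, was scattered in both groups, at 8.65, 48.7, 34.6 and 21.1 CPM in bulk and 40.3, 12.7, 11.6 and 4.78 CPM in slow MEF.

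Cholesterol synthesis genes were lower in slow MEF. Of 19 synthesis genes 6 fell (31.6%), and 4 to 6 fell with 1 library left out. By edgeR and DESeq2 none of 8 genes of its regulation and uptake passed, and 2 were lower at an unadjusted p under 0.05. Fdps, which makes farnesyl diphosphate, fell from 314, 376, 193 and 280.1 CPM to 49.1, 55.4, 39.8 and 52.7 CPM (-2.58 ± 0.29, edgeR adjusted p = 0.000468). Lss, which closes the sterol ring, fell from 77.2 ± 47.6 to 10.3 ± 6.93 CPM (-2.91 ± 0.63, edgeR adjusted p = 0.0145). Of 5 tested genes of sterol efflux and Lxr targets 2 rose, and 1 without bulk MEF replicate 2, or without slow MEF replicate 1. Mylip, which the sterol sensor Lxr induces to degrade the LDL receptor, rose from 27.8 ± 10.7 to 148 ± 72.5 CPM (2.40 ± 0.42, edgeR adjusted p = 0.00542). Of fatty acid genes, Fasn, fatty acid synthase, fell (-1.89 ± 0.38, edgeR adjusted p = 0.00995), Pnpla2, the triglyceride lipase of cells, fell (-1.74 ± 0.32, edgeR adjusted p = 0.00687) and Lpl, the secreted lipoprotein lipase, rose from 3.41 ± 1.52 to 43.2 ± 9.84 CPM (3.65 ± 0.47, edgeR adjusted p = 0.00112).

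Of 17 glycolysis genes 4 fell and 1 rose, and of 19 genes of oxidative phosphorylation 4 fell. With 1 library left out, 3 or 4 fell in each, and the glycolysis gene that rose passed in none of those 8 fits. Aldoa, aldolase, fell from 4183 ± 645 to 1788 ± 368 CPM (-1.25 ± 0.20, edgeR adjusted p = 0.00342) and Ldha, lactate dehydrogenase, from 1577 ± 188 to 724 ± 108 CPM (-1.15 ± 0.19, edgeR adjusted p = 0.00385). Hif1a, the oxygen-regulated factor whose protein drives such genes in hypoxia, rose in mRNA from 66.2 ± 7.82 to 182 ± 51.9 CPM (1.44 ± 0.28, edgeR adjusted p = 0.00896). In the respiratory chain, Uqcrc1, a core subunit of complex III, fell from 223 ± 43.1 to 45.04 ± 15.3 CPM (-2.33 ± 0.33, edgeR adjusted p = 0.00156), and Atp5b, the catalytic subunit of ATP synthase, from 1363 ± 154 to 562 ± 37.9 CPM (-1.30 ± 0.18, edgeR adjusted p = 0.0015). Of 18 genes of oxidative stress 3 rose: Gpx3, a secreted glutathione peroxidase, from 22.6, 39.7, 41.99 and 27.7 CPM to 737, 553, 423 and 560.1 CPM (4.09 ± 0.31, edgeR adjusted p = 2.85e-05), Sod3, the extracellular superoxide dismutase (3.12 ± 0.48, edgeR adjusted p = 0.00279), and Mt2, a metallothionein (2.85 ± 0.48, edgeR adjusted p = 0.00438).

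Part of the ribosome biogenesis genes were lower. Of 27 tested 6 fell and 1 rose, with a median log2 fold change of -0.76, and the gene that rose kept its call only without bulk MEF replicate 2, or without slow MEF replicate 4. Ddx21, a helicase of the nucleolus, fell from 106 ± 14.8 to 36.9 ± 11.996 CPM (-1.55 ± 0.32, edgeR adjusted p = 0.0114) and Mybbp1a, a nucleolar regulator, from 259 ± 70.2 to 92.6 ± 16.8 CPM (-1.49 ± 0.28, edgeR adjusted p = 0.00746). Of 32 ribosomal protein genes 7 fell and 1 rose. The 7 became 4 without bulk MEF replicate 2, 3 without bulk MEF replicate 4, or without slow MEF replicate 3 and 2 without slow MEF replicate 1, and 3 genes rose without bulk MEF replicate 2. Rps2 fell from 7104 ± 1096 to 3893 ± 169 CPM (-0.89 ± 0.16, edgeR adjusted p = 0.00555), while Rps24 rose from 239 ± 69.4 to 567 ± 87.3 CPM (1.22 ± 0.26, edgeR adjusted p = 0.0141). Ribosomal protein genes have many near-identical copies, and how the authors counted shared reads is not given in the sources used here. Of 18 genes of the amino acid response 3 fell and 1 rose, the last only without slow MEF replicate 3 among the fits with 1 library left out. Phgdh, the first enzyme of serine synthesis, fell (-1.55 ± 0.35, edgeR adjusted p = 0.0181), as did Shmt2, which makes glycine in mitochondria (-1.77 ± 0.33, edgeR adjusted p = 0.00755). Of 13 genes of stress in the endoplasmic reticulum 2 fell: Xbp1, a factor of the unfolded protein response (-1.63 ± 0.32, edgeR adjusted p = 0.00943), and the chaperone Calr (-1.18 ± 0.19, edgeR adjusted p = 0.00385).

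Whether the slow gate held fewer dividing cells than the untreated culture could be asked of the cell cycle genes. By edgeR none of 28 genes of G2 and mitosis passed against bulk MEF, none had an unadjusted p under 0.05, DESeq2 called none, and their median log2 fold change was -0.25. Cyclin A2, Ccna2, was at 20.1, 10.3, 11.9 and 6.89 CPM in slow and 13.7, 23.8, 10.9 and 8.78 CPM in bulk MEF (-0.24 ± 0.52, edgeR adjusted p = 0.811, 95% interval -1.38 to 0.91). Cyclin B1, Ccnb1, was at 4.24, 11.9, 9.95 and 20.2 CPM in slow and 23.8, 14.2, 4.80 and 6.58 CPM in bulk MEF (-0.11 ± 0.65, edgeR adjusted p = 0.935, 95% interval -1.53 to 1.31). Mcm2, of the replicative helicase, was at 18.4 ± 4.38 and 25.1 ± 14.1 CPM (-0.47 ± 0.46, edgeR adjusted p = 0.557, 95% interval -1.48 to 0.55). The groups overlapped for these 3 genes, and each interval holds a fall of 2-fold as well as a rise, so equal levels are not shown. Fast MEF stood apart: of the same 28 genes 25 were lower in slow than in fast MEF, where Ccna2 was at 76.05, 80.2, 50.8 and 51.6 CPM (slow minus fast -2.40 ± 0.41, edgeR adjusted p = 0.00172).

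Single cell cycle genes did differ from bulk MEF. Of 27 S phase genes 2 fell, 1 of them without bulk MEF replicate 1, 3 or 4, or without slow MEF replicate 2 or 4. Cdt1, which licenses replication origins, fell from 10.2, 38.3, 67.02 and 20.8 CPM to 1.25, 3.83, 6.53 and 1.44 CPM (-3.40 ± 0.73, edgeR adjusted p = 0.0143). Gas1, a membrane protein named for its induction in growth-arrested fibroblasts, rose from 53.9, 21.95, 42.7 and 24.6 CPM to 496, 317, 265 and 205 CPM (3.15 ± 0.39, edgeR adjusted p = 0.000891). It was 1 of 3 that rose among 14 tested quiescence and pocket protein genes (21.4% against 5.51% of all genes; 1 without bulk MEF replicate 1, or without slow MEF replicate 2). Of 6 tested inhibitors of cyclin-dependent kinases 1 fell, Cdkn2b (-1.27 ± 0.34, edgeR adjusted p = 0.0346). Its call held only without bulk MEF replicate 3 or without slow MEF replicate 1. Cdkn1a, the inhibitor p21 and a p53 target, was high in both groups, at 3785 ± 908 CPM in slow and 4403 ± 854 CPM in bulk MEF (-0.24 ± 0.22, edgeR adjusted p = 0.507, 95% interval -0.71 to 0.23). Of 20 tested p53 targets 2 rose and 1 fell, 15% against 10.5% of all genes, with a median log2 fold change of -0.02. The 2 became 1 without bulk MEF replicate 2, or without slow MEF replicate 3 or 4. Trp53inp1 rose from 18.4 ± 2.98 to 61.04 ± 20.2 CPM (1.71 ± 0.37, edgeR adjusted p = 0.0156) and Plk2 fell from 354 ± 64.4 to 69.9 ± 24.7 CPM (-2.36 ± 0.31, edgeR adjusted p = 0.00114).

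Slow and fast MEF, both induced, were compared directly to see which of these differences belong to the slow gate. This comparison uses the same 4 slow libraries as the comparison with bulk MEF, so the 2 are not independent. Of 11742 genes 3726 passed (31.7%), 2035 higher in slow MEF (17.3%) and 1691 lower (14.4%). Interferon genes were higher in slow than in fast MEF as well, 23 of 45 higher and 3 lower. Matrix proteoglycans and glycoproteins were higher for 25 of 26 and lower for 1, and the insulin-like growth factor axis for 12 of 14. Of the contractile genes 11 of 15 were higher in slow than in fast MEF. Acta2 stood at 143, 108, 117 and 66.5 CPM in fast MEF (slow minus fast 4.23 ± 0.27, edgeR adjusted p = 8.09e-06), so its slow libraries lay between the fast and the bulk range. Of cholesterol synthesis genes 2 of 19 were higher in slow than in fast MEF and 1 lower, with Fdps at 62.7 ± 6.71 CPM in fast MEF (slow minus fast -0.35 ± 0.27, edgeR adjusted p = 0.358). Ribosome biogenesis was lower in slow than in fast MEF for 21 of 27 genes. Of 12 Erk feedback genes 4 were higher in slow than in fast MEF and 4 lower. Among those lower, Phlda1 was at 259 ± 69.9 CPM in fast MEF, near the 266 ± 109.6 CPM of bulk MEF (slow minus fast -2.27 ± 0.44, edgeR adjusted p = 0.0034). Dusp6, a phosphatase of Erk, went the other way, with a mean level of 2.66 ± 1.12 CPM in fast MEF that was below both slow MEF (slow minus fast 2.62 ± 0.60, edgeR adjusted p = 0.00799) and bulk MEF, at 50.7 ± 16.2 CPM.

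Some genes that are very high in fast MEF were also above bulk MEF in slow MEF, unevenly over the slow libraries. Keratin 14, Krt14, an epithelial filament protein, was at 39.01, 219, 159.7 and 635 CPM in slow MEF, 1.75, 7.63, 1.75 and 1.59 CPM in bulk MEF and 11013, 6694, 13406 and 11290.4 CPM in fast MEF (6.35 ± 0.92, edgeR adjusted p = 0.0019 against bulk MEF). Its fold change over bulk MEF was 7.25 without bulk MEF replicate 2 and 5.40 without slow MEF replicate 4. Krt6a was at 84.1, 38.2, 204 and 69.6 CPM in slow and 1.09 ± 0.911 CPM in bulk MEF (6.46 ± 0.78, edgeR adjusted p = 0.000763), 7.17 without bulk MEF replicate 2 and 5.84 without slow MEF replicate 3. Reads of keratin genes may be shared between near-identical copies. Stmn2, a neuronal tubulin regulator, was at 39.1, 191, 112 and 12.2 CPM in slow, 4.73 ± 2.75 CPM in bulk and 3412 ± 441 CPM in fast MEF (4.19 ± 0.79, edgeR adjusted p = 0.00762 against bulk MEF, 3.50 without slow MEF replicate 2). The order of the slow libraries differed between these genes: Krt14 was highest in replicate 4, Krt6a in replicate 3 and Stmn2 in replicate 2. Stratifin, Sfn, an epithelial adaptor protein at 3002 ± 806 CPM in fast MEF, was not above bulk MEF in slow MEF (9.85, 64.2, 97.8 and 61.3 against 85.5, 65.3, 77.6 and 74.3 CPM; -0.40 ± 0.52, edgeR adjusted p = 0.667). Other defining keratinocyte markers, Krt5 and Trp63, were at or near 0 in every slow, bulk and fast library. The share of fast cells in the slow gate was not measured, and its part in these values was not tested.

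The slow libraries correlated less with each other than the bulk libraries did. The median correlation of a library with the others of its group, over the tested genes on the log scale, was 0.885 to 0.892 in bulk and 0.846 to 0.864 in slow MEF, and 0.779 to 0.823 with libraries of the other group. Genes with 1 slow library far above the rest included A4galt, a glycolipid galactosyltransferase, at 33.5, 29.3, 52.1 and 447 CPM in slow and 0.493 ± 0.256 CPM in bulk MEF (8.10 ± 1.13, edgeR adjusted p = 0.0015, and 6.20 without slow MEF replicate 4). Xist, the RNA of the inactive X chromosome in female cells, was at 47.7, 11.98, 397 and 90.6 CPM in slow MEF replicates 1 to 4 and at 7.80 to 52.4 CPM in bulk MEF. By contrast, Ifitm3, Bgn, Tagln, Sfrp1 and Igfbp4 kept to a narrow range over the 4 slow libraries, as their values above show.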

How the data were processed

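The authors deposited 1 table of raw read counts per gene for all 24 libraries. The tools named per the submitters' processing notes are TopHat2 2.0.4, HTSeq and CASAVA 1.8.2, with the genome build mm9. The sources used here give no settings, annotation, treatment of shared reads or use of strand. The table names 23283 genes, of which 1708 have no count in any library, and no row lacks a gene name.

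Slow and bulk MEF (4 libraries each) were compared with edgeR 4.0.16 (R 4.3.3): filterByExpr, TMM factors, robust quasi-likelihood test, Benjamini-Hochberg adjustment over all tested genes, threshold 0.05. Slow and fast MEF were fitted likewise. Fold changes are log2, slow minus bulk, ± SE, and a bare number with an adjusted p is such a value. CPM values are scaled with TMM factors over the 12 MEF libraries, in the order of replicates 1 to 4, with SD over 4 libraries. A group without counts was given a floor of 3 counts for bounds. Library properties were tested by exact permutation over 70 splits. The fits were tested on simulated counts, with 50 genes changed at each fold. For slow against bulk MEF, 2 of the 50 genes were recovered at 2-fold, 16 at 4-fold, 30 at 8-fold and 43 at 16-fold, with 4 false calls. Most changes of 2-fold to 4-fold were thus missed, and a gene that did not pass may still differ.

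Alternatives were DESeq2 1.42.0, limma voom 3.58.1 with quality weights, RLE and upper-quartile factors, no and stricter filters, thinned counts, 12 or 24 libraries in 1 fit, a replicate block, removal of Rn45s and Lars2 and each library left out. The comparison, the members and the lists were chosen with earlier results of these data known; of 848 list members 844 matched by symbol, 3 by a synonym and 1 not. Genes named are the factor genes, the 12 highest and 12 lowest called without overlap at 20 CPM or more, and the first and leading members of each list, from which mostly genes called with any 1 library left out are described; some are not reported here. Promoters are RefSeq's on GRCm38.p6, searched on both strands in the 250 bases before the start with Python 3.11.15, and printed with 20 bases on each side where the window allows.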

Additional observations from a re-analysis of the deposited data

Results flagged for a closer look

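In the groups of 4 libraries tested, 1 library was set apart where its gap to the nearest other library took up more of the group's range than Dixon's 95% critical value for 4 values. Not every group is covered: bulk MEF of Cxcl1 and of Usp18, each counted in 1 library only, are not among those marked. Of 324 groups tested, over the genes named in the text and 3 properties of the libraries, 18 were marked. Chance marks about 1 in 20 groups, so this number is near what chance gives. No explanation was weighed.

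Among bulk MEF, replicate 3 stood high for Fn1 at 6035 CPM (others 2040 to 2337), Klf4 at 174 CPM (others 135 to 136), Sox2 at 4.91 CPM (others 0.122 to 0.876), Pou5f1 at 2.57 CPM (others 0 to 0.438), Irgm2 at 0.819 CPM (others 0 to 0.122) and Trp53inp1 at 22.8 CPM (others 16.3 to 17.3). Bulk MEF replicate 1 stood alone for Irf7 at 1.64 CPM and replicate 4 for Islr at 0.488 CPM, with the others at 0. Bulk MEF replicate 2 was high for Krt14 at 7.63 CPM (others 1.59 to 1.75) and low for Zyx at 1303 CPM (others 2306 to 2437).

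Among slow MEF, replicate 1 was low for Igtp at 12.8 CPM (others 19.6 to 20.5), Il6st at 193 CPM (others 248 to 257) and Srf at 44.9 CPM (others 131 to 139), and high for Islr at 114 CPM (others 29.9 to 39.1). Replicate 4 was high for A4galt at 447 CPM (others 29.3 to 52.1) and low for Usp18 at 2.33 CPM (others 7.48 to 8.35). Replicate 2 was high for Timp1 at 72.9 CPM (others 54.5 to 57.3) and Fcer1g at 11.4 CPM (others 0 to 0.445).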

How the results depend on the processing

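The number of genes called moved most in DESeq2 and in the fit of all 24 libraries. DESeq2 called 1021 higher and 956 lower in slow than in bulk MEF. With all 24 libraries in 1 fit 38 and 18 were called, and 656 higher and 590 lower in slow than in fast MEF. With 1 library left out the counts against bulk MEF were 386 to 524 higher and 354 to 474 lower. The cause was not tested. Of the 133 genes named in the text and called in slow against bulk MEF, all kept their direction in every alternative in which they were tested (6 did not pass the stricter filter), and 123 to 129 kept their call with any 1 library left out, 132 in DESeq2 and 23 with all 24 libraries in 1 fit. These genes were mostly chosen for a call that held with any 1 library left out, so the leave-one-out counts follow from that choice. Among all called genes, 265 of 620 higher and 277 of 561 lower kept the call in all 8 such fits. Other scaling factors moved the median of all genes by less than 0.1 on the log2 scale. Same-numbered libraries did not deviate together over all tested genes (r = 0.019, -0.0153, 0.0399 and -0.0219 for replicates 1 to 4). Such correlations cannot show whether same-numbered libraries share an embryo, culture or plate, which is not stated, so a pairing is left undecided. With the replicate number as a block 424 genes were higher and 446 lower against bulk MEF, and 1815 and 1529 against fast MEF. With every library thinned to the depth of the shallowest, 1151 genes passed, against 1181 at full depth.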

Other observations

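Some gene groups outside the comparisons above moved in part. Of 21 genes of lysosome and autophagy 2 were higher in slow than in bulk MEF, Lamp2, a membrane protein of lysosomes (1.28 ± 0.23, edgeR adjusted p = 0.00647), and Cd63, a tetraspanin of late endosomes (1.33 ± 0.24, edgeR adjusted p = 0.00672), and 3 were lower, or 1 without bulk MEF replicate 4 or slow MEF replicate 2, 3 or 4. Of 12 heat shock genes 2 were lower, 1 of them without any library but bulk MEF replicate 3, and the small heat shock protein Hspb1, which binds actin filaments, went from 170.1 ± 30.7 to 34.7 ± 9.14 CPM (-2.31 ± 0.32, edgeR adjusted p = 0.0015). Against fast MEF, 18 of 20 tested genes of lysosome and autophagy were higher in slow MEF (17.3% among all genes) and 5 of 12 heat shock genes were lower.

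Of 3 tested markers of chondrocytes and osteoblasts 1 was higher in slow MEF, and 2 without bulk MEF replicate 3 or slow MEF replicate 2. The 1 that passed, Spp1, osteopontin, a secreted phosphoprotein of bone and of many activated cells, went from 513, 551, 397 and 531 CPM in bulk to 1896, 1486, 1116 and 977 CPM in slow MEF (1.44 ± 0.24, edgeR adjusted p = 0.00424). Nes, nestin, an intermediate filament of progenitor cells, went the other way, from 67.5 ± 20.2 to 3.89 ± 3.03 CPM (-4.11 ± 0.61, edgeR adjusted p = 0.00226, or -4.75 without slow MEF replicate 4). The part of such cells was not tested.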
